A study of Rattus norvegicus with 5 samples.

Results

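The comparison concerns 2 of the 5 libraries of left ventricular wall, one from the S-DTMS group (an infarcted heart treated with a suture that carried SNAP) and one from the MI group (an infarcted heart without treatment). They were chosen by their sample labels, the S-DTMS library being spelled S-DTNS there. All hearts came from male SD rats, aged 7 to 8 weeks according to the labels, and in all groups except Normal the left anterior descending artery had been ligated. The labels place sampling at 1 month, whereas the methods of the study place it a week after therapy. The SNAP library (infarct with injected SNAP), the DTMS library (infarct with the suture) and the Normal library (heart without infarction) serve only to place the levels. The study describes independent replicates for its sequencing, whereas the table analysed here holds 1 library per group. Whether a library stands for 1 rat or for pooled rats is not given in the sources used here, and no difference below has a replicate check or a p-value.

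After a coronary artery is closed, cardiomyocytes in its territory die, leukocytes clear the debris, and fibroblasts lay down a collagen-rich scar. SNAP is an S-nitrosothiol that releases nitric oxide, which activates soluble guanylate cyclase in vascular smooth muscle and relaxes vessels. DTMS is a hollow hydrogel suture with a conducting polymer, stitched over the infarct, and in the S-DTMS group SNAP solution was given through its channel. The comparison asks how transcript levels in the ventricular wall differ when suture and drug are given together.

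Levels are given as FPKM, fragment counts divided by gene length and by the depth of the library, under rat Ensembl identifiers. None of the 20646 identifiers could be paired with a gene name (0 matched the reference table), so genes are described by level, by size of change and by their place among the 5 libraries. For the same reason the markers that define heart muscle, immune cells, fibroblasts or vessels could not be looked up, and how far a different make-up of the tissue pieces goes with the differences was not tested. In whole tissue, fewer cells of a type and less RNA per cell cannot be told apart. The MI library held 16785936 fragments and the S-DTMS library 17037939, with 17729 and 17656 genes above 0, so that depth was close to equal.

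A difference is the log2 ratio of FPKM + 1 between S-DTMS and MI, a scale that damps the changes of weakly expressed genes, for those 13262 genes that reached an FPKM of 1 in either library. Most genes differed little, with 56.3% of them within 0.5 on the log2 scale in either direction, and the middle part of the genes, from the 25th to the 75th percentile, ran from -0.26 to 0.54. A log2 difference of at least 1 was reached by 1211 genes that were higher in S-DTMS (9.13% of the genes) and by 789 that were lower (5.95%), which makes 2000 genes in all (15.1%). For the same 13262 genes, MI against Normal gave 2.30% higher and 4.11% lower. SNAP against MI gave 1.98% and 4.16%, and DTMS against MI 1.03% and 3.31%. The genes were filtered on MI and S-DTMS only, so the other pairs were not filtered alike. Between S-DTMS and MI, more genes lay above 0 (8132) than below (5130), with a median of 0.17. After dividing each library by its median ratio to the mean of both (median of ratios), the median was 0.04, and 946 genes were higher (7.13%) and 996 lower (7.51%), 1942 in all (14.6%). The number of differing genes was thus nearly the same on both of these scales, but as TPM (each library scaled to a common total) it was 2567. The surplus of higher genes also depended on the scale. Of the differing genes, 60.5% were higher as deposited, 69.4% as TPM, 48.7% with the median of ratios and 43.1% when the median change was subtracted. When the 10 most abundant genes were kept out of the totals, 964 genes were higher and 965 lower.

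**Figure D1:**
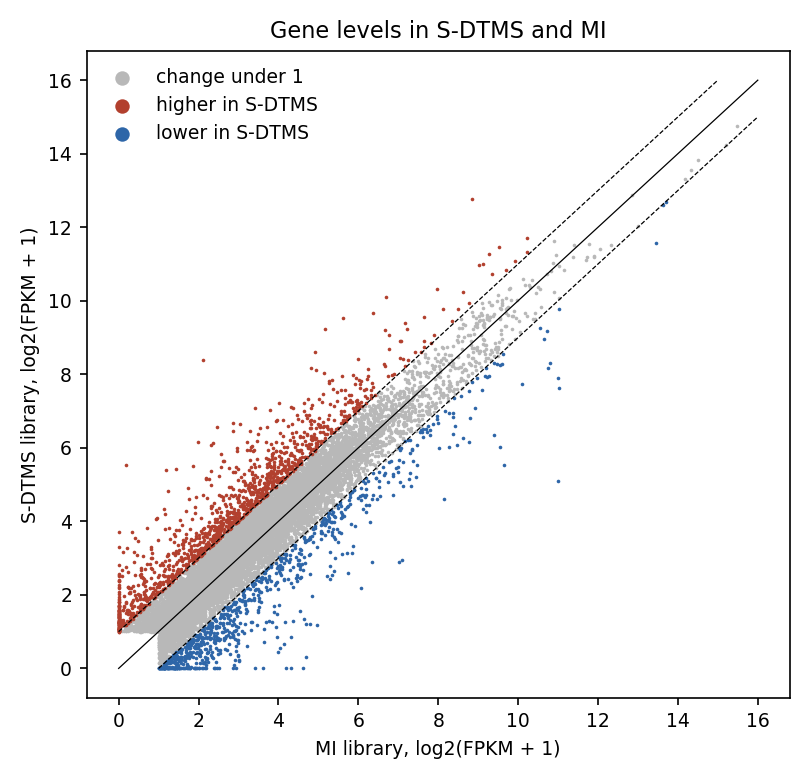
Level of each of the 13262 genes in the MI library (horizontal axis) and the S-DTMS library (vertical axis), both as log2(FPKM + 1) of the deposited values. The solid line marks equal levels and the dashed lines a log2 difference of 1 in either direction; 1211 genes lie on or above the upper line and 789 on or below the lower line.

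Large differences occurred in both directions. A log2 difference of at least 2 was reached by 186 higher and 120 lower genes, and one of at least 3 by 42 higher and 28 lower genes. Fragments allow the counting error of each gene to be stated as an exact 95% interval of the ratio, which covers counting only and not the variation between rats. This interval lay wholly beyond a factor of 2 for 916 of the 1211 higher genes (75.6%) and for 608 of the 789 lower genes (77.1%). Over all 13262 genes it did so for 1646 (12.4%). The higher and lower genes were chosen by their difference in these same fragments, so the larger shares among them follow in part from the choice. The interval included a ratio of 1 for 103 higher and 61 lower genes, and for 3848 of all genes. The higher genes rested on a median of 1056 fragments in both libraries together, and the lower genes on 262.

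The gene with the largest increase was ENSRNOG00000021029. It had an FPKM of 3.31 in MI and 335 in S-DTMS, while DTMS had 9.13, SNAP 22.9 and Normal 58.3. Thus S-DTMS was the highest of the 5 libraries, above the heart without infarction, and MI was the lowest. In fragments these were 20 in MI (exact Poisson 95% interval 12.2 to 30.9) and 2055 in S-DTMS (1967 to 2146). The ratio of S-DTMS to MI per library total was 101 (95% interval 65.4 to 166), and the log2 difference was 6.28 as deposited and 6.15 with the median of ratios.

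The next was ENSRNOG00000015156, for which 2 fragments were found in MI, 4 in DTMS, 31 in SNAP, 54 in Normal and 652 in S-DTMS. It was close to undetected in MI and in DTMS, low in SNAP and Normal, and highest in S-DTMS. The ratio of S-DTMS to MI was 321, but the 2 fragments in MI leave a 95% interval from 88.6 to 2658.

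The gene with the largest decrease was ENSRNOG00000025757, with an FPKM of 33.1 in S-DTMS against 2030 in MI. DTMS stood at 589, SNAP at 714 and Normal at 45.8. Levels in S-DTMS and Normal were thus near each other and far below MI, with SNAP and DTMS between them. MI exceeded S-DTMS by a ratio of 61.4 (95% interval 59.3 to 63.5), and the log2 difference was -5.90 as deposited and -6.04 after scaling. With 205410 fragments in MI and 3397 in S-DTMS, counting error hardly limits this value.

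For ENSRNOG00000042018 the fragments were all in MI, and the gene was listed at 0 in Normal, SNAP, DTMS and S-DTMS. Being above 0 in MI only, the gene was given 193 fragments there. These are the fewest that fit its FPKM, so the count can be too low. With 3 fragments taken as the limit that a count of 0 allows in the S-DTMS library, its level was at least 65.3-fold lower there than in MI. The exact 95% interval used for the other genes, which also counts the error in MI and allows more for a count of 0, puts the bound at 52.6. Here MI was the library that stood apart, and S-DTMS was at 0 like the other 3.

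Among the 20 genes with the largest increase (FPKM of at least 10 in MI or S-DTMS), the log2 differences ran from 3.41 to 6.28. Their FPKM in S-DTMS ranged from 12.0 to 6954 with a median of 90.1, and in MI from 0 to 456 with a median of 4.30. S-DTMS was the highest library for 18 of them, and it was so for 1067 (88.1%) of all 1211 higher genes. In DTMS, SNAP and Normal the medians of their FPKM were 8.54, 14.0 and 19.1. In 9 of the 20 the SNAP library was also higher than MI by at least 1 on the log2 scale, against 1.98% of all genes, and in 5 the DTMS library was, against 1.03%. MI was lower than Normal by as much in 13, against 4.11% of all genes. These comparisons share the MI library, so that a low value there moves all of them together.

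The most abundant of these 20 had an FPKM of 6954 in S-DTMS, against 456 in MI, 665 in Normal, 1015 in DTMS and 1479 in SNAP. All treated libraries were above MI here, and S-DTMS was above Normal by more than the others. A different profile was shown by the gene of rank 9, for which S-DTMS had 738 and Normal 626, but MI 48.0, SNAP 62.2 and DTMS 37.6. Its level was similar in S-DTMS and Normal and low in the other 3 infarcted hearts. In the gene of rank 19, with 7.28 in MI and 98.6 in S-DTMS, the highest level was in SNAP, at 245, while Normal had 7.05 and DTMS 4.11. It was thus high only in the hearts that received SNAP. The gene of rank 13 had the fewest fragments, 16 in S-DTMS and MI together.

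The 20 genes with the largest decrease had log2 differences from -5.90 to -3.45. Their FPKM ranged from 11.3 to 2030 in MI, with a median of 25.9, and from 0 to 64.2 in S-DTMS, with a median of 1.29. S-DTMS alone was the lowest library for 17 of them, and it was so for 611 (77.4%) of all 789 lower genes. The medians in Normal, SNAP and DTMS were 29.7, 19.7 and 23.6, all nearer to that of MI than to that of S-DTMS. MI was higher than Normal by at least 1 in 9 of these genes, against 2.30% of all genes. SNAP was lower than MI by as much in 9, against 4.16%, and DTMS in 8, against 3.31%, again with MI shared. In the gene of rank 8, for example, S-DTMS had an FPKM of 45.7, against 411 in Normal, 801 in MI, 1387 in DTMS and 766 in SNAP. The gene of rank 12 was at 1.32 in S-DTMS, while MI had 26.7, Normal 26.8, SNAP 27.0 and DTMS 34.9. Both were lower in S-DTMS than in uninjured heart as well. The gene of rank 7 had 1893 in Normal, 129 in MI, 79.1 in DTMS, 20.6 in SNAP and 6.40 in S-DTMS, so that its level in S-DTMS was farther from Normal than that in MI.

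**Figure D2:**
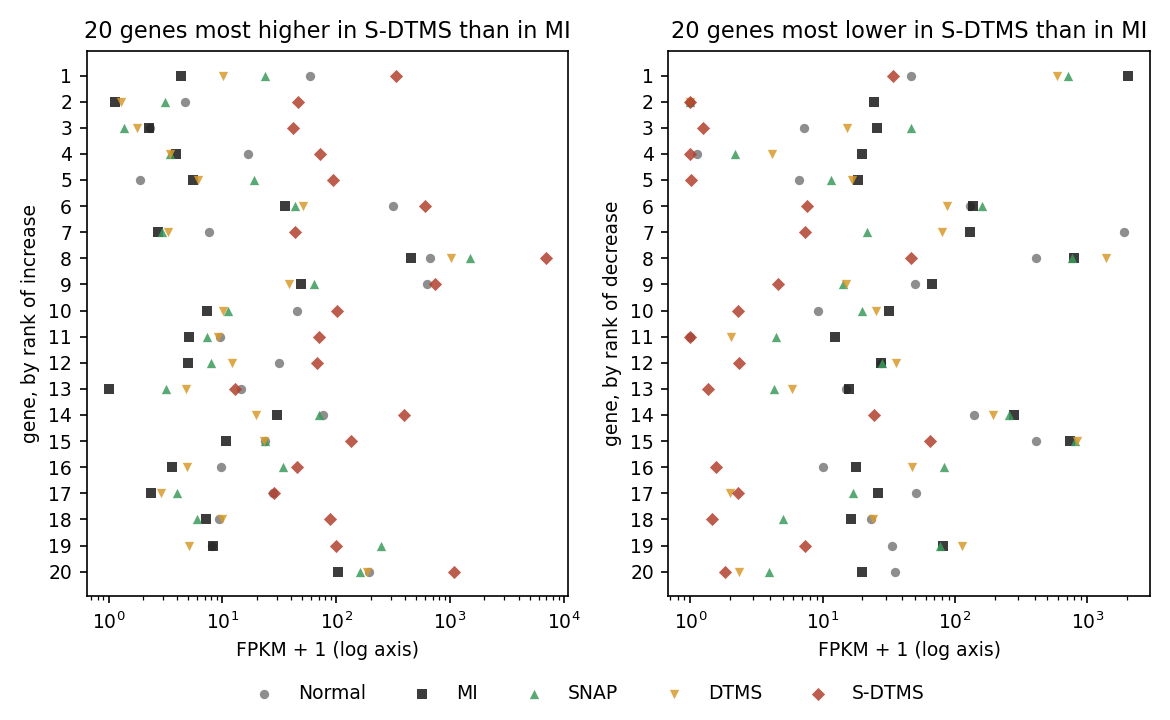
FPKM + 1 on a log axis in the 5 libraries for the 20 genes most higher (left) and the 20 most lower (right) in S-DTMS than in MI, ranked by the log2 difference, with 1 point per library. S-DTMS is the highest library in 18 genes on the left and alone the lowest in 17 on the right. Among all 1211 higher genes it is the highest in 88.1%, and among all 789 lower genes alone the lowest in 77.4%. Points that coincide, such as the 4 libraries at 0 in the gene of rank 2 on the right, cover each other.

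Whether a difference went towards uninjured heart was described by asking if the Normal library lay nearer to S-DTMS or to MI on the log2 scale. This measure treats the 2 libraries alike, as exchanging them would only exchange the counts. Of the 1211 genes higher in S-DTMS, Normal lay nearer to S-DTMS in 440 (36.3%) and nearer to MI in 771 (63.7%). Of the 789 lower genes, it lay nearer to S-DTMS in 250 (31.7%) and nearer to MI in 539 (68.3%). In most genes of either direction, Normal was thus nearer to the untreated infarct than to S-DTMS.

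The position of Normal was in most cases between the infarcted libraries. For 1024 of the 1211 higher genes Normal lay between MI and S-DTMS, for 106 it lay below MI and for 81 above S-DTMS. For 593 of the 789 lower genes it lay between them, for 151 above MI and for 45 below S-DTMS. With factors from all 5 libraries, the median of ratios gave 883 higher genes (6.66%) and 1007 lower genes (7.59%), 14.3% of the genes in all, with Normal nearer to S-DTMS in 33.9% and 35.1% of them. Among the genes with a log2 difference of at least 3, the shares as deposited were 15 of 42 higher and 6 of 28 lower genes.

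The libraries with only the drug or only the suture lay nearer to MI than to S-DTMS in most of the higher genes. SNAP lay nearer to S-DTMS in 254 of the 1211 higher genes and DTMS in 113 (9.33%). For the 789 lower genes the numbers were 398 for SNAP (50.4%) and 318 for DTMS (40.3%). On the median-of-ratios scale over 5 libraries the shares were 30.8% and 14.9% of the higher genes and 38.5% and 32.1% of the lower genes for SNAP and DTMS. On both scales, DTMS had the smallest share among the 3 libraries for the higher genes.

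**Figure D3:**
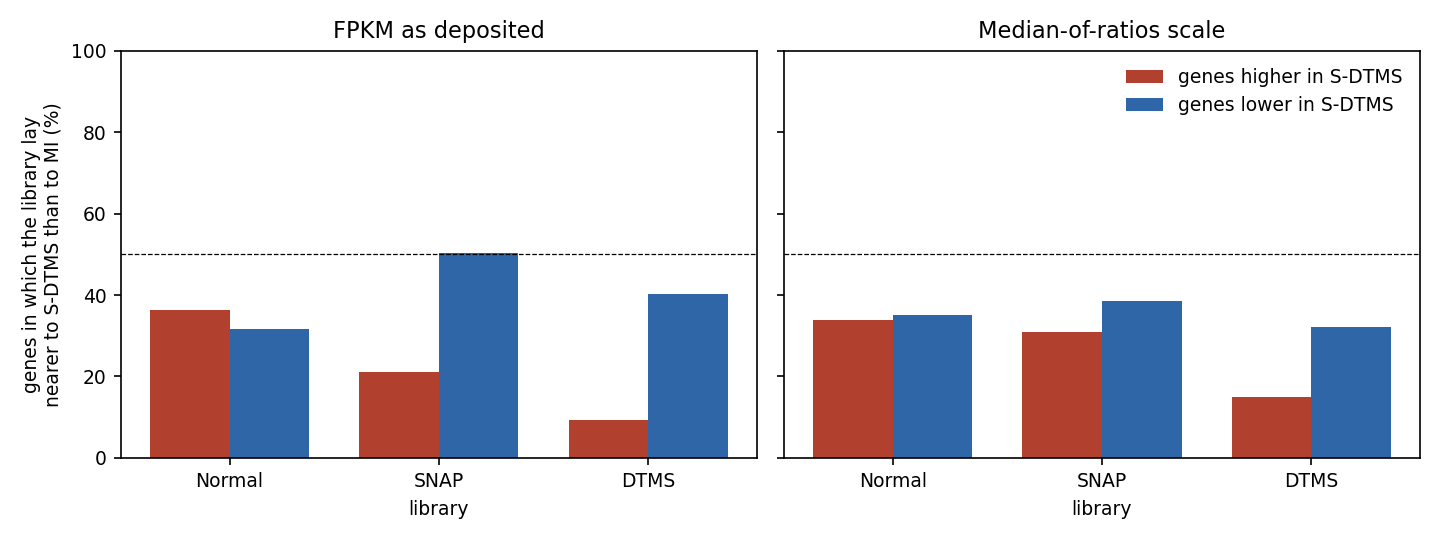
Share of the genes that differed between S-DTMS and MI in which the Normal, SNAP or DTMS library lay nearer to S-DTMS than to MI on the log2(FPKM + 1) scale, for genes higher (red) and lower (blue) in S-DTMS, as deposited (left) and on the median-of-ratios scale over 5 libraries (right). The dashed line marks 50%; apart from SNAP for lower genes as deposited, at 50.4%, all bars lie below it, and DTMS for higher genes is the lowest, at 9.33% and 14.9%.

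For each differing gene it was then asked which of the pair stood apart, that is, differed by at least 1 on the log2 scale and in one direction from each of the other 4 libraries. S-DTMS stood apart above the rest in 313 of the 1211 higher genes (25.8%), whereas MI stood apart below the rest in 26 (2.15%). Among the 789 lower genes, S-DTMS stood apart below in 151 (19.1%) and MI above in 76 (9.63%). With the median of ratios over 5 libraries, S-DTMS stood apart in 222 of 883 higher genes (25.1%) and 208 of 1007 lower genes (20.7%), and MI in 26 and 70. S-DTMS was thus the library that stood apart more often than MI, in both directions and on both scales. With 1 library per group, the library and the treatment cannot be told apart.

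Some genes were listed at 0 in a single member of the pair. Of the 2917 genes at 0 in MI, 1198 were above 0 in S-DTMS. Of these, 43 had at least 10 fragments there, with a median of 12.0 and at most 125. Normal had at least 10 fragments in 7 of these 43 and was at 0 in 9. Conversely, 68 genes were at 0 in S-DTMS and had at least 10 fragments in MI, with at most 193, and Normal had at least 10 in 23 of these. Fragments were worked out as the smallest whole numbers that fit the libraries above 0. For genes at 0 in some libraries they can be too few, so the counts of genes past 10 fragments can be too low.

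The few most abundant genes were mostly lower in S-DTMS than in MI. In MI 21.5% of all fragments fell on its 10 leading genes, but in S-DTMS only 13.5% did, while Normal had 16.9%, SNAP 23.2% and DTMS 22.8%. The single most abundant gene had an FPKM of 27440 in S-DTMS, which was below MI at 45428, Normal at 37933, SNAP at 52093 and DTMS at 50737. Of the 10 genes that led by mean FPKM over the 5 libraries, 9 were lower in S-DTMS than in MI, with a median log2 difference of -0.90, and S-DTMS was the lowest library in 7. The exception was the gene of rank 10, at 7380 in MI and 7515 in S-DTMS. Farther down the ranking the share of lower genes fell: 34 of the leading 50 genes were lower (median -0.51), 59 of 100 (median -0.21) and 276 of 500 (median -0.14). Of all 13262 genes, 5130 were lower (median 0.17). With the median of ratios, all of the leading 10 were lower, 38 of 50, 67 of 100 and 311 of 500, against 6258 of the 13262 genes.

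Of these genes, that of rank 9 differed most. S-DTMS had an FPKM of 3018, a log2 difference of -1.90 from MI at 11287, and Normal had 2738, SNAP 10788 and DTMS 10877. S-DTMS and Normal were thus near each other and far below the other 3 infarcted hearts. By contrast the gene of rank 7 was at 6211 in S-DTMS, while MI had 12689, Normal 11870, SNAP 12399 and DTMS 11975, so that S-DTMS alone was low. Both profiles, S-DTMS near Normal and S-DTMS below all, thus occurred among the most abundant genes.

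**Figure D4:**
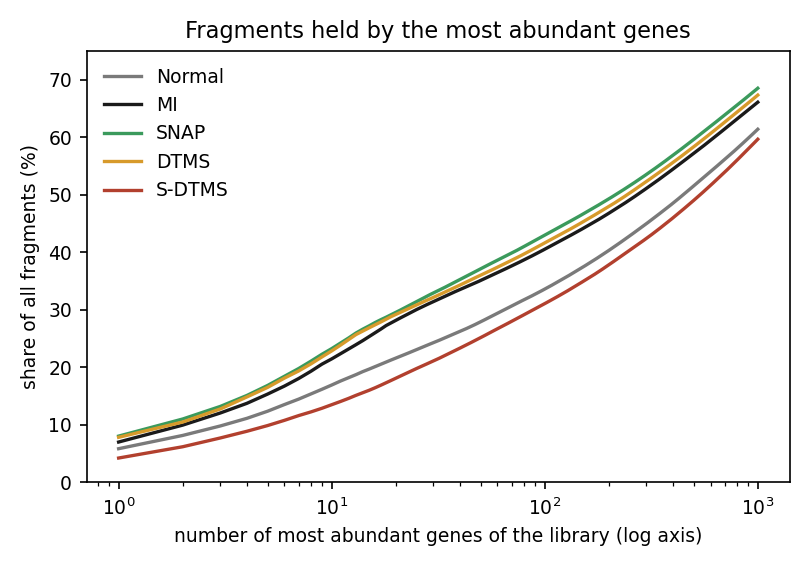
Share of all fragments of a library (vertical axis, %) held by its most abundant genes, from 1 to 1000 genes (horizontal axis, log), with 1 line per library. S-DTMS is the lowest line throughout, at 13.5% for 10 genes and 59.6% for 1000 genes, and Normal is next; MI, SNAP and DTMS lie together, at 21.5% to 23.2% for 10 genes.

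The redistribution can be stated in shares of the library. Genes with a lower share in S-DTMS lost 24.3 percentage points in total, of which the 10 largest losses made up 43.6% and the 100 largest 71.2%. The gains were spread over more genes, with 14.7% in the 10 largest and 35.4% in the 100 largest. By mean FPKM in the 2 libraries, genes from 20 to 100 went from 23.9% of the fragments in MI to 30.1% in S-DTMS, and genes from 5 to 20 from 14.1% to 17.5%. Genes of at least 1000 went from 31.1% to 23.4%.

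The balance of higher and lower genes also differed by level. Of the 2908 genes with a mean FPKM from 20 to 100, 11.6% were higher and 4.23% lower in S-DTMS, with a median difference of 0.21. From 5 to 20 the shares were 8.24% and 3.22%. Below 5 they were 8.51% and 9.52%, and from 100 to 1000 they were 8.86% and 9.02%. Among the 53 genes of at least 1000, 10 were higher and 4 lower although the median was -0.14, and with the median of ratios 9 were higher and 9 lower with a median of -0.29. On the median-of-ratios scale, 8.80% were higher and 5.74% lower from 20 to 100, while from 100 to 1000 there were 7.15% higher and 12.9% lower.

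**Figure D5:**
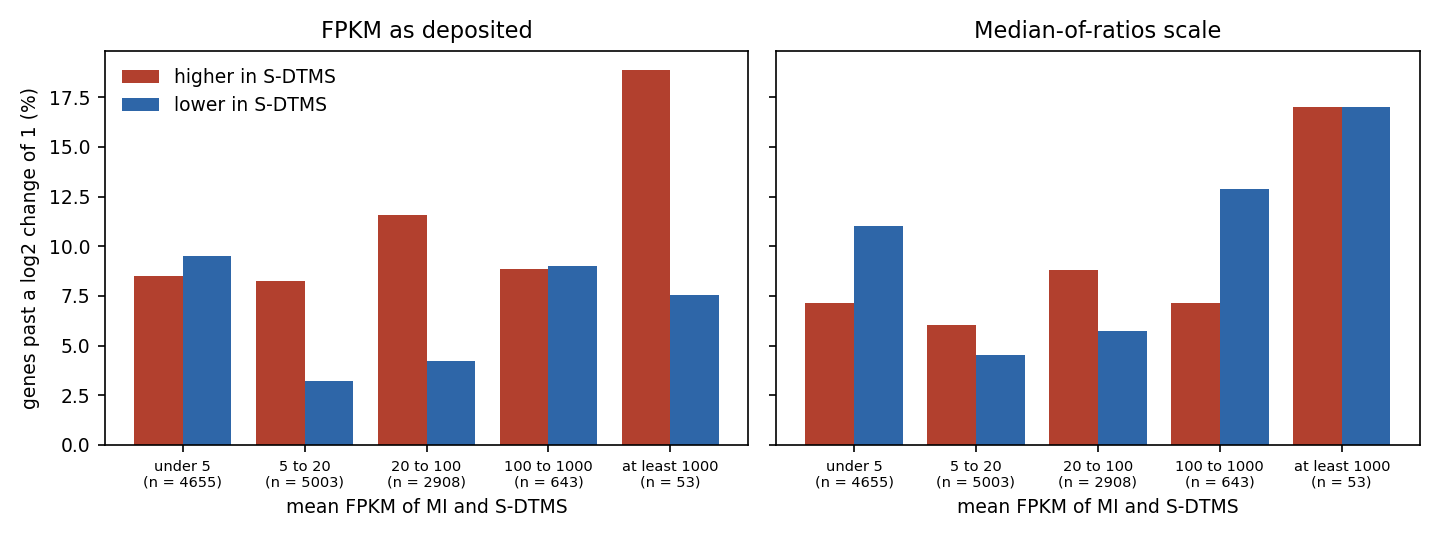
Share of genes (vertical axis, %) at least 1 higher (red) or lower (blue) on the log2 scale in S-DTMS than in MI, by the mean FPKM of both libraries (geometric mean of FPKM + 1, less 1), as deposited (left) and on the median-of-ratios scale (right). Higher genes outnumber lower genes from 5 to 100 on both scales, while below 5 and from 100 to 1000 lower genes are as many or more.

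The differences varied with the worked-out gene length. The length behind each FPKM was worked out with the fragments, as the smallest that gives whole fragments. It can thus be too short, most readily for genes with few fragments, which would then fall in a shorter class. Among the 2655 genes of up to 1146 bases, the median difference was 0.05 as deposited and -0.08 after scaling, and among the 2652 genes longer than 3832 bases it was 0.28 and 0.15. From the shortest to the longest class, the share of lower genes was 10.6%, 6.67%, 5.28%, 3.88% and 3.32%. The share of higher genes did not fall steadily, at 12.3%, 8.79%, 7.43%, 7.73% and 9.43%. The part of gene length or of fragment number in these results was not tested.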

How the data were processed

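RNA of 5 left ventricular wall samples, 1 per group, was sequenced by the authors on an Illumina NovaSeq 6000, and expression was deposited as FPKM. The submitters' processing notes name HTSeq and mm9, a mouse build, although the identifiers are rat Ensembl genes. The aligner and annotation release are not given in the sources used here. Columns were assigned by the sample descriptions.

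Whole fragments were worked out from the FPKM values. Relative depth came from the commonest ratio of low values, and whole gene lengths (tolerance 0.001) then gave library totals within 0.0023 of whole numbers, from 16731024 to 17379225 fragments. All 20304 genes above 0 received whole fragments, and a gene whose fragments share a divisor can be given too few. The steps were tested on data simulated with these same lengths and totals. That test could not show whether the lengths worked out from the deposited values were too short. The listed genes held from 99.1% to 99.3% of a total.

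Changes are differences of log2(FPKM + 1), with a limit of 1, for the genes that reached an FPKM of 1 in MI or S-DTMS. Members, lists and limits were chosen with earlier results of these data known. The rule for named genes (the 20 largest changes each way, FPKM of at least 10, past the limit on both scales) required names, so that 2 identifiers each way are printed and the others are given by rank; the abundant genes described by rank were chosen after their values were seen. The 49 gene lists written for this comparison were not analysed here, as 0 identifiers matched a name, and no sequence is shown. edgeR, which the authors used, needs counts of replicate libraries and was not run. Intervals are exact (Clopper-Pearson for ratios, Poisson for fragments). Python 3.11.15, NumPy 2.4.6, pandas 2.3.3, SciPy 1.17.1 and Matplotlib 3.10.9 were used.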

Additional observations from a re-analysis of the deposited data

How the results depend on the processing

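No paired analysis was possible because a lone library stands for each group, and for the same reason no library could be left out. Counts, shares and medians were recomputed under 7 alternatives and 2 more (at least 20 fragments, changes relative to the median change) chosen after seeing the data. Of 70 such values, 49 stayed within 1.5 times a count or within the 95% interval of a share or median that covers the number of genes only. Of these 49, 7 could not change, since a gene below an FPKM of 1 in both libraries cannot reach the limit and leaving out the filter adds none. Counts within 1.5 times still varied: 2869 genes differed with a pseudocount of 0.1, 2567 as TPM and 1410 with an FPKM of at least 5, against 2000. The balance of higher and lower genes turned, from 1211 and 789 as deposited to 946 and 996 with the median of ratios and 846 and 1119 relative to the median change, while the median change of all genes stayed above 0 under each alternative that gave one. At a log2 change of at least 2, the count fell to 306 genes (186 higher, 120 lower), S-DTMS stood apart in 45 genes and MI in 7, and Normal lay nearer to S-DTMS in 36.7% of lower genes. With a pseudocount of 0.1, S-DTMS stood apart in 788 genes and MI in 232, against 464 and 102, Normal lay nearer to S-DTMS in 41.9% of higher and 27.9% of lower genes, and the median change was 0.20. With an FPKM of at least 5, 470 genes were lower, MI stood apart in 62, Normal lay nearer to S-DTMS in 25.7% of lower genes, and the median was 0.23. With at least 20 fragments that share was 28.3%, and with the median of ratios over 5 libraries 35.1%. The median change was 0.02 without a filter, 0.04 with the median of ratios, 0.31 as TPM and 0.06 when the totals excluded the 10 leading genes. The part of higher genes among those that differed was 60.5% on the deposited scale, 48.7% with the median of ratios, 69.4% as TPM and 43.1% relative to the median change, and without the 10 leading genes 964 were higher and 965 lower. The 4 printed identifiers kept their direction under each alternative run. This could hardly come out otherwise, as they were chosen as the largest changes past the limit on both scales. The cause of these shifts was not tested. Depth did not limit abundant genes, but 519 of the 13262 genes had under 20 fragments in both libraries together.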
